A study of Homo sapiens with 21 samples.

Results

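The regions described here are stretches of chromatin in CAMA1 cells where RNA polymerase II phosphorylated at serine 5 of its tail (Pol II S5P) was called in both ChIP-seq lists while no H3K4me3 peak was called in either list of that mark. They were chosen by these values: a reproducible Pol II S5P region is a merged stretch holding a peak of both lists (at least 1 bp shared, chromosomes 1 to 22 and X), and a member overlapped no row of either H3K4me3 list. Of 9969 reproducible Pol II S5P regions, 996 were members and 8973 overlapped H3K4me3.

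CAMA1 is a breast cancer line that the labels give as ER+ and FGFR1-amplified. The study profiled FGFR1 in cells transfected with siFOXA1, in cells transfected with siNT and in untransfected cells, and profiled Pol II S5P, H3K27ac, FOXA1 and H3K4me3 in untransfected cells, with 2 peak lists per group. All cells spent 48 h in medium without estradiol, and transfected cells were collected 72 h after transfection. Every group is the same line. The labels do not say whether the paired libraries are separate cultures, so SDs and p-values measure only the spread between libraries, which may be technical. The lists held 4332 and 5056 peaks for FGFR1 after siFOXA1, 6007 and 6594 after siNT, 5341 and 13135 for untransfected FGFR1, 18713 and 12267 for Pol II S5P, 154358 and 145991 for H3K27ac, 123582 and 127427 for FOXA1, and 41399 and 38624 for H3K4me3. The untransfected FGFR1 lists were the most unequal in length. Fold enrichment below is the authors' value for a peak, a linear ratio over background. The value given is that of the highest peak of each list that overlaps a region. Such a peak can reach beyond the region, so its summit may lie elsewhere and neighbouring members can share a value.

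As background, RNA polymerase II carries serine 5 phosphorylation when it leaves a promoter and while it pauses just downstream, and H3K4me3 marks the nucleosomes around active gene starts. H3K27ac marks active promoters and enhancers. FOXA1 is a pioneer factor of luminal breast cells that binds mostly at enhancers, and FGFR1 is a receptor tyrosine kinase that the study examined on chromatin. Polymerase is also found at enhancers, along transcribed gene bodies and near the far ends of active genes, where H3K4me3 is usually absent.

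Few members lay over a promoter sequence. On the chromosomes for which promoter sequences were used, 6 of 727 members (0.825%) overlapped the 250 bases upstream of a protein-coding start, against 5845 of 8578 regions with H3K4me3 (68.1%). The windows that members did touch are shown as upstream sequences under Pol II S5P with no H3K4me3 row on the region, with the start of GATA3, which held both, for contrast. Sequences are from RefSeq (GRCh38.p14), 5′ to 3′ and ending at the base before the start, and capitals mark each CG dinucleotide.
KRT7-AS, chr12:52247449-52247698, - strand: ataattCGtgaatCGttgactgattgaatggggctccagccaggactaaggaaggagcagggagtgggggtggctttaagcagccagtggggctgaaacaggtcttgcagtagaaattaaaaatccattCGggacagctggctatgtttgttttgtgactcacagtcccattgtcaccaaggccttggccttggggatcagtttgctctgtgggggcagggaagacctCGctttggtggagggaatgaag
LENEP, chr1:154993336-154993585, + strand: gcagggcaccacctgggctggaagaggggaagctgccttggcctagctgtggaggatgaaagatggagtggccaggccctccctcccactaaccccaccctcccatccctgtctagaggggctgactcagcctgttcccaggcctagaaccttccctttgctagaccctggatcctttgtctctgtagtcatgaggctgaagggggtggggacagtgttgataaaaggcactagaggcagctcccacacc
FAM83E, chr19:48615077-48615326, - strand: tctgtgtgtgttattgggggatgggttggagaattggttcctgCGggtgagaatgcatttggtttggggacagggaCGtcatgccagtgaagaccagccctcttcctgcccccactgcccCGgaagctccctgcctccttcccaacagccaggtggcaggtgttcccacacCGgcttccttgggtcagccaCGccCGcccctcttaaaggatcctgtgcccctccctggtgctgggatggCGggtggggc
RUSC1, chr1:155320644-155320893, + strand: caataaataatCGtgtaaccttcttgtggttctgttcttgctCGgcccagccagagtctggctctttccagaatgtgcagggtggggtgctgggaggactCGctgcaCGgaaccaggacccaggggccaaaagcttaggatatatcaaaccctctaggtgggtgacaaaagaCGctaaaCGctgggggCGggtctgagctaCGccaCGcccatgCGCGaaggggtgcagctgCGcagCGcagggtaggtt
GATA3, chr10:8053391-8053640, + strand: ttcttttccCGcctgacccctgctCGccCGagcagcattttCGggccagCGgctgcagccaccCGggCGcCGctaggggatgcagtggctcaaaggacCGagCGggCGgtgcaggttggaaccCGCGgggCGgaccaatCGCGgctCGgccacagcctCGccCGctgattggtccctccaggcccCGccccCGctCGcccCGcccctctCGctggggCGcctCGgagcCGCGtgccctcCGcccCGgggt
The first 4 windows held 4, 0, 7 and 13 CG dinucleotides, and the GATA3 window held 30. Over all 7 windows at members (1 of MCCD1 and 2 starts of NUP210L are not printed) the median was 4 CG per window, with a range of 0 to 13, against a median of 24 at the 8906 windows under Pol II S5P with H3K4me3 and 11 over all 34961 windows. The letters TATAAA, searched on both strands, were in 0 of the 7 windows, in 3.69% of windows under Pol II S5P with H3K4me3 and in 10.7% of all windows. A 0 among 7 windows, of which the 2 of NUP210L overlap each other, cannot be told from these shares. Whether the low CG counts follow from choosing members without H3K4me3 was not tested. KRT7-AS is an antisense RNA at the keratin gene KRT7, and its region had fold enrichments of 6.26 and 5.66 in the 2 Pol II S5P lists. The nearest H3K4me3 row was 34 bp from the region at KRT7-AS, 422 bp at RUSC1, 1545 bp at FAM83E and 5347 bp at LENEP, so the regions at KRT7-AS and RUSC1 lay close to the mark. The GATA3 start region had 14.6 and 12.6.

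Most members lay inside or outside genes, not at their ends. Only 167 members (16.8%) lay within 1 kb of where a protein-coding gene starts or ends, against 78.6% of regions with H3K4me3 and 72.4% of all reproducible Pol II S5P regions. The share of members was 28.1% with a limit of 3 kb, and 31.7% of the 199 members left with a −log10 q of at least 5 in both Pol II S5P lists. The difference between members and regions with H3K4me3 was −61.8 percentage points, with a 95% Newcombe interval of −64.2 to −59.2. A further 522 members (52.4%) lay inside a protein-coding gene, against 12.9% of regions with H3K4me3, and 307 (30.8%) lay outside such genes, against 8.50%. Inside and outside genes refer to protein-coding genes throughout. With genes of any type, 720 members (72.3%) overlapped a gene, against 92.7% of regions with H3K4me3. Because H3K4me3 lies at gene starts, the choice of members by its absence bears directly on this position. The median distance from a member to the nearest H3K4me3 row was 7502.5 bp, and 882 members (88.6%) were more than 1 kb away. Just inside the rule were regions 14, 17 and 18 bp from an H3K4me3 row, at XRRA1, ARRB1 and TPCN2, and just outside it were regions at ADAM32 and near CCND1 with 23 bp of overlap and one at DDIT4 with 30 bp.

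All 3 other targets were less frequent at members. A reproducible H3K27ac region overlapped 452 members (45.4%, 95% Wilson interval 42.3 to 48.5), against 8878 regions with H3K4me3 (98.9%) and 93.6% of all Pol II S5P regions. The difference was −53.6 points (−56.6 to −50.4). FOXA1 overlapped 235 members (23.6%, 21.1 to 26.3), against 41.8% of regions with H3K4me3 and 40% of all, a difference of −18.2 points (−20.9 to −15.3). FGFR1 overlapped 43 members (4.32%, 3.22 to 5.76), against 44.3% of regions with H3K4me3 and 40.3% of all, a difference of −40.0 points (−41.5 to −38.2). Regions share libraries and are not replicates, so these intervals cover counting error only. The shares were not matched for position, and 16.8% of members against 78.6% of regions with H3K4me3 lay at gene ends. The part of position in these differences was not tested.

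FGFR1 depended most on the library. A peak of untransfected FGFR1 replicate 1 overlapped 9.14% of members and a peak of replicate 2 overlapped 26.8%, against 43.4% and 84.1% of regions with H3K4me3. Members were lower than regions with H3K4me3 in either list. With a row of either list in place of a reproducible region, FGFR1 overlapped 30.8% of members and FOXA1 38.5%. H3K27ac without FOXA1 marked 312 members, FOXA1 without H3K27ac marked 95, and both marked 140. All 3 targets met at 11 members (1.10%), against 20.3% of regions with H3K4me3, and none of the 3 was at 432 members (43.4%), against 0.245%.

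Members were mostly weak Pol II S5P regions. Their median fold enrichment was 4.71 and 4.55 in the 2 lists, against 9.12 and 7.23 for regions with H3K4me3, and 817 of the 996 were in the weakest of 5 equal bins of all Pol II S5P regions by rank. Among these weak regions H3K27ac overlapped 43.3% of members against 98.8% of regions with H3K4me3, FOXA1 22.3% against 40.7%, and FGFR1 4.53% against 16.6%. The shares of all 3 targets were lower at members in this range of Pol II S5P strength too, and the gap for FGFR1 was narrower there than over all regions. H3K27ac and FGFR1 were lower at members in the other 4 bins as well. FOXA1 was mixed. It overlapped 31% of the 100 members in the next weakest bin against 33.2% of regions with H3K4me3. In the middle bin it overlapped 38.1% of 21 members against 38.0%. In the next stronger bin it overlapped 55.6% of 18 members against 41.9%, and in the strongest bin 10% of 40 against 54.7%. The strongest members were of another kind, and the members are described below in 3 sets: 714 on chromosome arms 8p, 11q and 1p, 49 in 4 genes elsewhere, and 228 others. The 5 members left over count in the totals and are not described. Of the 40 members in the strongest bin only 3 were among the 228 others, and of the 18 in the next bin 5 were. In these 2 bins H3K27ac overlapped 2 of those 3 and all 5. FOXA1 overlapped 2 and 0 of them, and FGFR1 1 and 0. The shares over all members in these bins thus say little about the others.

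**Figure D1:**
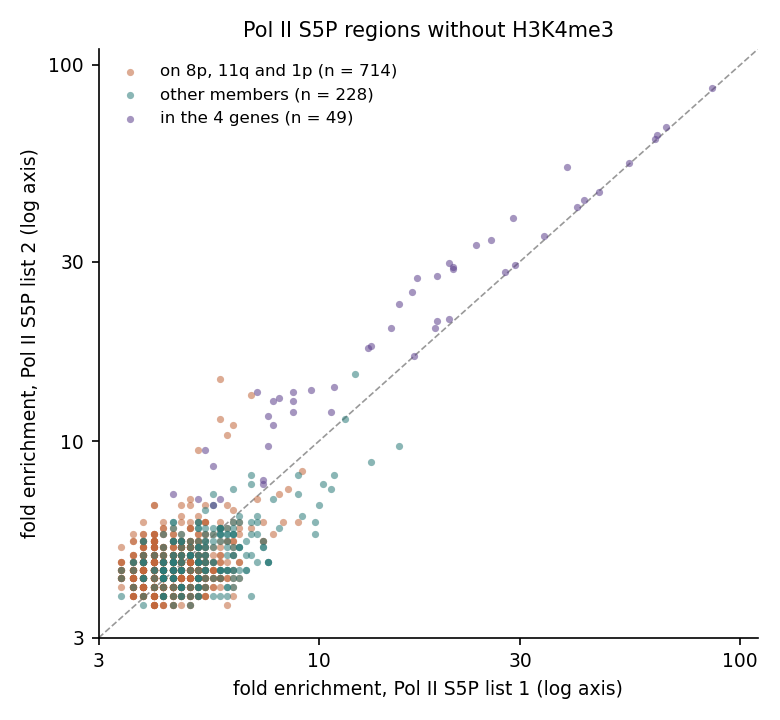
Fold enrichment of each member of the 3 sets in Pol II S5P list 1 (x, log axis) and list 2 (y, log axis), coloured by set, with the dashed line marking equal values. Points on the arms and among the other members crowd at the low end, whereas the 49 members in 4 genes reach 85.5 and 86.7.

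The 3 arms held 714 members (71.7%, Wilson interval 68.8 to 74.4), against 9.62% of regions with H3K4me3 and 15.8% of all reproducible Pol II S5P regions. Among the 199 members left with a −log10 q of at least 5 in both Pol II S5P lists the share was 32.7%, so it was lower among stronger peaks. By arm, 342 members (34.3%) were on 11q, 254 (25.5%) on 8p and 118 (11.8%) on 1p. The same arms held 11.2% of protein-coding genes, 9.93% of H3K27ac regions, 8.55% of FOXA1 regions, 9.62% of H3K4me3 regions and 12.7% of untransfected FGFR1 regions. The FGFR1 regions of transfected cells stood higher there, with 47.3% after siFOXA1 and 33.9% after siNT. Single lists had larger shares on these arms than regions found in both, with 17.4% and 21.4% of peaks for untransfected FGFR1 and 27.2% and 23.2% for Pol II S5P, against 9.65% and 9.67% for H3K4me3. Read the other way, 72.4% of Pol II S5P regions on 8p lacked H3K4me3 (254 of 351), as did 54.6% on 11q (342 of 626) and 19.7% on 1p (118 of 600), against 3.36% elsewhere (282 of 8392).

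**Figure D2:**
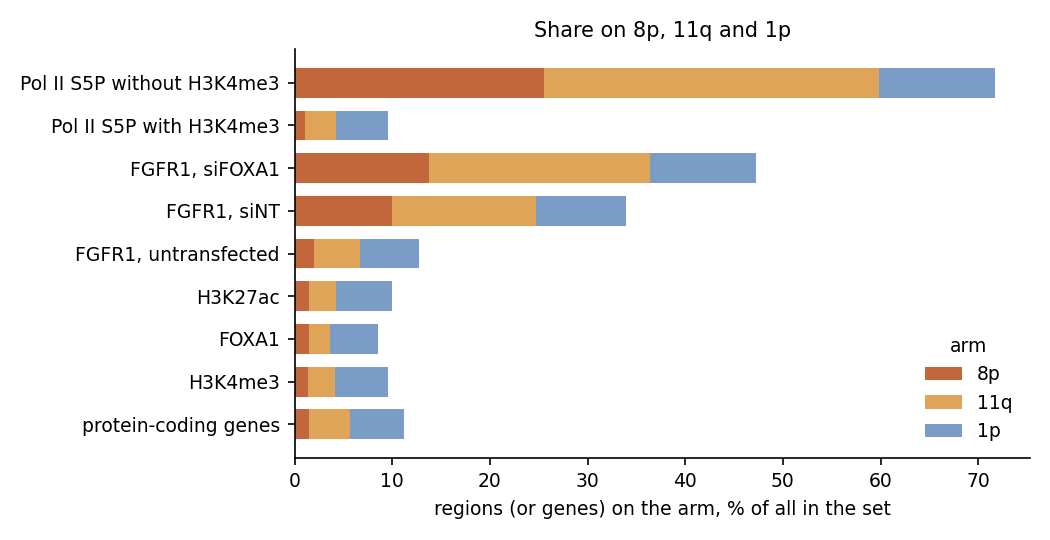
Share of each set of regions, or of protein-coding genes, that lies on 8p, 11q and 1p (x, % of the set, stacked by arm). Members reach 71.7%, against 9.62% of Pol II S5P regions with H3K4me3, and FGFR1 regions after siFOXA1 and siNT are the next highest.

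On each arm the members sat in blocks a few megabases long. On 8p, 250 of 254 lay between 36 and 42 Mb (hg38), the stretch that holds FGFR1. On 11q, 220 lay between 74 and 76 Mb and 110 between 68 and 71 Mb, and on 1p, 100 lay between 108 and 113 Mb. The 21 windows of 1 Mb with at least 10 members held 741 of the 996, and 16 of these windows were on the 3 arms. Copy number was not measured in the files used here, and in each of the 14 lists every fold value was paired with a single p-value, as from one background for the whole genome. The part of copy number in the placement of these members was not tested.

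The blocks differed in what else was bound. H3K27ac overlapped 23.2% of members in the 8p block, 55.5% in the 68 to 71 Mb block of 11q, 48.6% in the 74 to 76 Mb block and 47.0% in the 1p block. FOXA1 overlapped 25.2%, 20.9%, 27.7% and 20% of them in the same order. FGFR1 overlapped 18 members of the 8p block (7.20%) and 1 of the 100 in the 1p block. Position differed too: 62.7% of the 68 to 71 Mb block lay outside genes, against 43.2% of the 8p block, 21.4% of the 74 to 76 Mb block and 15.0% of the 1p block.

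Single genes on the arms held rows of members. KCNU1, a potassium channel gene best known from sperm, held 52, the most of any gene, with fold enrichments of at most 6.26 and 6.78. On 11q, RNF169 held 40, XRRA1 30, POLD3, a subunit of DNA polymerase delta, 28, and PGM2L1 20. CTTN, which encodes the actin-binding protein cortactin, held 16, and ELAPOR1 on 1p held 10. Of the 25 genes listed for the 8p11 amplicon 21 held a member, and of the 20 listed for 11q13 6 did (PPFIA1, CTTN, LTO1, TPCN2, ANO1 and MYEOV), against 1.41% of all 19974 protein-coding genes. Strand was known for no gene on chromosome 8, so positions along host genes cover 11q and 1p and no member on 8p. Members of these 2 arms were spread along their genes. Of 232 in a gene of known strand (148 on 11q and 84 on 1p), the median lay 63.8% along the gene and 26.4 kb from its start. H3K4me3 was at the start of the same gene for 213 (91.8%). These are counts of members and not of genes, so genes with many members, such as RNF169 and XRRA1, weigh heavily in them.

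The leading members on 8p were all in FGFR1 itself (chr8:38411143-38468635, 57.5 kb), which held 9. The top one had fold enrichments of 6.92 and 13.3, the next 5.81 and 14.6, and over all 9 the medians were 5.81 and 10.4. List 2 was higher than list 1 at each of the 9. The members were narrow, with a median width of 457 bp. The same 8 of 9 carried an FGFR1 peak in both lists after siFOXA1 (medians 10.8 and 10.0), in both lists after siNT (14.6 and 10.0) and in untransfected FGFR1 replicate 2 (8.33), whereas replicate 1 had a peak at none of them. FOXA1 had peaks at 7 and 5 of the 9, with maxima of 20.7 and 7.87, so the FOXA1 lists also differed there. The ninth member, with Pol II S5P at 3.83 and 4.55, had no FGFR1 peak in any list and H3K27ac at 21.3 and 22.99.

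On 11q the leading member (chr11:75404830-75409227) lay in RPS3, a ribosomal protein gene, with fold enrichments of 9.12 and 8.34 and with H3K27ac, FOXA1 and FGFR1 together. The next (chr11:65444354-65447446) covered NEAT1, a long non-coding RNA gene, and MIR612 within it, with 8.46 and 7.45. Members in PPFIA1, an adaptor of cell adhesion sites, and in KLHL35 followed, with 8.02 and 7.23 and with 7.14 and 7.004. KLHL35 had strong H3K27ac, at 63.0 and 65.1. On 1p the leaders were a pair of members in RCC1, the exchange factor of the GTPase Ran, with 7.80 and 5.66 and with 6.92 and 5.89. One at the far ends of PNRC2 and the splicing factor SRSF10 had 6.48 and 6.11, and one in CEPT1, a phospholipid synthesis enzyme, had 5.37 and 6.78.

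Of the members described outside the arms, the 29 leading ones all lay in 4 genes: PIK3CA, AKT2, AKT1 and TSC1. These genes were singled out after their values were seen. Together they held 49 members, 17.4% of the 282 outside the arms, with median fold enrichments of 16.6 and 19.9 and a median width of 370 bp. PIK3CA encodes the catalytic subunit of a PI 3-kinase, AKT1 and AKT2 are kinases downstream of it and TSC1 is an inhibitor of mTOR signalling.

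PIK3CA (chr3:179148126-179240093) held 16 members, with fold enrichments of 7.36 to 85.5 in list 1 and 7.90 to 86.7 in list 2, and its strongest (chr3:179198688-179199311) was the strongest of the 996. These 16 covered 7220 bp of a 35.8 kb span, lay 55.3% to 93.6% along the gene and had a median width of 409.5 bp. No other reproducible Pol II S5P region lay in the gene. H3K4me3 was called once in each list, at 101.3 and 101.5, and no member touched it. Whether peaks as narrow and strong as these, here and in the other 3 genes, in FGFR1 and in TBC1D5, come from polymerase on the cells' own genes was not tested, and no input library was used.

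AKT2, AKT1 and TSC1 also held rows of narrow members that no H3K4me3 peak touched, with differences in layout. AKT2 had 1 further Pol II S5P region, and 5 and 4 H3K4me3 peaks in the 2 lists, AKT1 had 2 H3K4me3 peaks in each list, and members of TSC1 began 33.5% along the gene. AKT2 held 10 members at 7.58 to 38.8 and 11.7 to 53.4, and AKT1 held 9 at 5.59 to 20.8 and 6.78 to 29.1. TSC1 held 14 at 4.49 to 17.05 and 7.004 to 27.1. In PIK3CA the 2 lists gave nearly equal ranges, while in AKT1, AKT2 and TSC1 list 2 reached higher than list 1. H3K4me3 overlapped 0 of the 49 by the rule, and within the 4 genes it was called with maxima of 92.9 to 102.1.

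Other targets at these 49 members differed from gene to gene. Reproducible H3K27ac overlapped 6 (3 in AKT1, 2 in AKT2 and 1 in TSC1), and FOXA1 overlapped 9, all in TSC1, with maxima of 51.5 and 17.6 in the 2 FOXA1 lists. Untransfected FGFR1 had no peak at any of the 49 in either list, whereas reproducible FGFR1 regions overlapped 12 after siFOXA1 and 17 after siNT. TSC1 held most of these, with 12 of its 14 members after siFOXA1 and all 14 after siNT, and PIK3CA had 0 of 16 after siFOXA1 and 3 of 16 after siNT. AKT1 and AKT2 had none in either. The gene tables used here give no exons, so whether the narrow members lie on exons was not tested.

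Of the 228 other members, 105 (46.1%) lay at gene ends (within 1 kb), 65 (28.5%) inside genes and 58 (25.4%) outside genes. Of the 92 at an end whose gene strand is known, 82 were at the end opposite the start only, 2 at a start only and 8 at both, as where genes abut. Regions with H3K4me3 outside the arms showed the reverse: of 5493, 189 were at the opposite end only, 4944 at a start only and 360 at both. Of the 122 members overlapping a gene of known strand, 77 (63.1%) were centred 80% or more along the gene or past its end, 24 of them past the end, and 11 (9.02%) were less than 20% along it. On 11q and 1p 69 of 232 (29.7%) were 80% or more along, and no gene of chromosome 8 is in either count. The host genes of these 122 had H3K4me3 at their start in 106 cases (86.9%), with a Pol II S5P region on it in 90 (73.8%), and the median member lay 10.8 kb downstream.

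**Figure D3:**
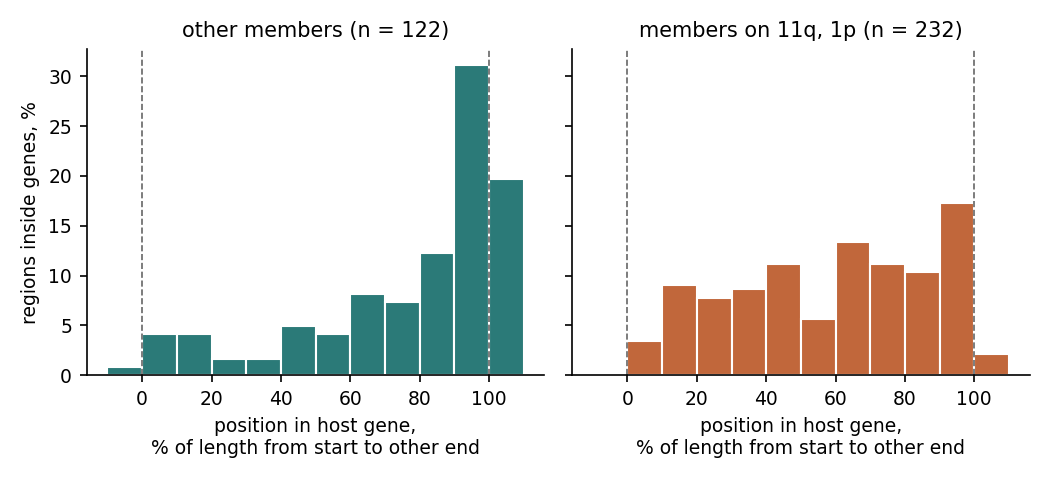
Position of the centre of members that overlap a gene of known strand, in % of the gene's length from its start (0, dashed) to its other end (100, dashed), with centres before the start or past the end in the outer bars; the y axis is % of regions. The 122 other members pile up at the far end, with a median of 90.0%, whereas the 232 on 11q and 1p (no gene on 8p has a known strand) spread along the gene, with a median of 63.8%.

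These 228 were wider than the members on the arms and had H3K27ac more often, FGFR1 less often. The median width was 674.5 bp against 556.5 bp on the arms, and the median fold enrichment was 5.15 and 4.77. H3K27ac overlapped 154 (67.5%, 61.2 to 73.3), against 40.9% of members on the arms, a difference of −26.6 points for the arms minus the others (interval −33.4 to −19.3). It was at 81.0% of those at gene ends, 61.5% of those inside and 50% of those outside genes. FOXA1 overlapped 53 (23.2%), within 0.984 points of the share on the arms (interval −5.63 to 6.97), and FGFR1 overlapped 3 (1.32%), against 5.60% on the arms, a difference of 4.29 points for the arms minus the others (interval 1.41 to 6.41). Against regions with H3K4me3 outside the arms the differences were −31.4 points for H3K27ac (−37.7 to −25.6), −17.8 for FOXA1 (−23.0 to −11.8) and −42.8 for FGFR1 (−44.1 to −40.0).

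**Figure D4:**
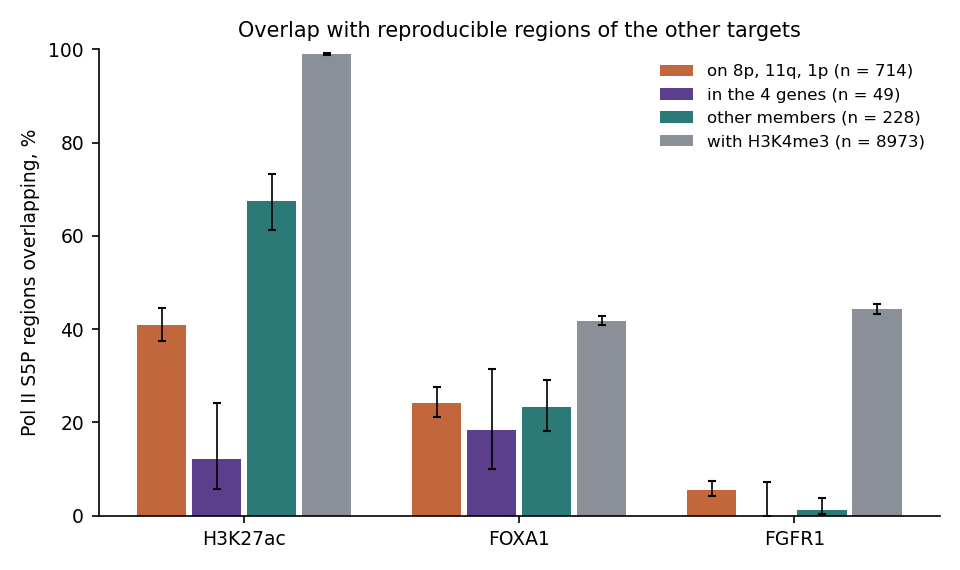
Share of Pol II S5P regions overlapping a reproducible region of H3K27ac, FOXA1 or untransfected FGFR1 (y, %), for members on the 3 arms, in the 4 genes and elsewhere, and for regions with H3K4me3; bars are shares and lines are 95% Wilson intervals. H3K27ac is at 67.5% of the other members and 40.9% of those on the arms, against 98.9% with H3K4me3, and FGFR1 is under 6% in each set of members.

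At gene ends the leading member (chr10:8073181-8077252, 4072 bp) covered the far end of GATA3, a luminal transcription factor whose start is printed above. Its fold enrichments were 12.2 and 15.0, against 14.6 and 12.6 at the GATA3 start, and H3K27ac and FOXA1 were present at 6.95 and 8.95 and at 5.01 and 4.50. ARHGDIA followed with 15.5 and 9.68 (chr17:81866716-81869180), and this was the only member outside the arms with H3K27ac, FOXA1 and FGFR1 together. TUBB, a beta-tubulin, had 13.3 and 8.79. IGFBP5, a secreted binding protein of insulin-like growth factors, had 10.9 and 8.12 over 5700 bp, the widest member. PTMA, which encodes prothymosin alpha, had 10.7 and 7.45. Next came the far ends of FGFR4 with 8.90 and 8.12, of TRIM41 and RACK1 with 10.0 and 6.78, of HNRNPAB with 6.92 and 8.12, of RPL13A with 6.92 and 7.67 and of BRD2 with 7.80 and 7.004. All 10 of these carried H3K27ac. The members at ARHGDIA, HNRNPAB and BRD2 lay close to H3K4me3, with the nearest row 206, 171 and 242 bp away.

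Inside genes the leading members were of a mixed kind. The top one lay in TBC1D5, a regulator of membrane traffic, with 11.5 and 11.5 over 328 bp, and it was 290661 bp from the nearest H3K4me3 row. It had no H3K27ac, FOXA1 or untransfected FGFR1, but FGFR1 peaks of 40.5 and 38.8 after siFOXA1 and 35.1 and 36.3 after siNT. DIPK1B followed with 8.90 and 7.23 over 2167 bp, with H3K27ac. A 332 bp member in COL23A1 had 6.26 and 7.45, and one in KMT2C, a histone methyltransferase of enhancers, had 5.59 and 7.23. IGFBP5 held a further member of 5439 bp with 6.92 and 5.66, and KRT7 held one with 6.26 and 5.89. The H3K27ac values at this KRT7 member, 48.4 and 55.4, were also those of the KRT7 member chr12:52247386-52248482. After PIK3CA, TSC1, AKT2 and AKT1, the genes with the most members outside the arms were IGFBP5 and NUP210L with 5 each.

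Outside genes the leading member (chr5:177100119-177101304) lay 1974 bp from FGFR4, a paralogue of FGFR1, with 10.2 and 7.67. FGFR4 itself held 2 members, and these and the leading one each had H3K27ac. The H3K27ac values of the leading one, 64.2 and 61.9, were also those of the far-end member chr5:177098027-177100000. A 378 bp member 2491 bp from SRL had 9.78 and 6.11, H3K27ac at 13.9 and 16.5 and strong FOXA1, at 53.4 and 52.5. Members 2358 bp from S100A16 and 1790 bp from SOX4, a developmental transcription factor, had 6.26 and 5.66 each, with H3K27ac at 67.8 and 69.4 and at 63.0 and 62.4. By contrast, members near GRAP (9.12 and 6.33) and 707619 bp from H3-7 (5.59 and 6.78) had none of the 3 targets.

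Among gene lists, luminal, ribosomal protein and housekeeping genes held members in 15%, 23.9% and 21.2% of cases. Immediate early genes and FGF and ERK genes did in 6.67% and 6.45%, on 2 genes each. The share of all protein-coding genes was 1.41%, or 0.841% counted outside the arms. Pol II S5P with H3K4me3 was also more frequent in the first 3 lists. It was held by 26 of 40, 66 of 67 and 32 of 33 genes, against 8435 of all 19974. Of 40 luminal and oestrogen receptor genes 6 held one (GATA3, TRPS1, KRT18, TFAP2A, SPDEF and CA12), all outside the arms. GATA3, TFAP2A and SPDEF encode transcription factors and KRT18 a luminal keratin. At TFAP2A (7.58 and 4.77) and KRT18 (5.81 and 5.89) the member lay at a gene end, and at CA12 it lay inside. SPDEF held 2 inside, and TRPS1 held 3 inside and 1 at an end. Of 67 ribosomal protein genes 16 held a member, 14 of them outside the arms, and of 33 matched housekeeping and secretory genes 7 did, TUBB first. Immediate early and stress genes had 2 of 30 (KLF6 at 5.37 and 4.77 and MYC at 6.03 and 4.10, both at gene ends), and FGF and ERK signalling genes 2 of 31 (FGFR1 and FGFR4). Replication-dependent histone genes had 0 of 34, and 27 of them held Pol II S5P with H3K4me3. Basal and mesenchymal, haematopoietic, and neuronal and hepatic genes had 0 of 20, 0 of 18 and 0 of 14. Of these lists 1, 0 and 0 genes held Pol II S5P with H3K4me3. With 1.41% of all protein-coding genes holding a member, a 0 in lists this short cannot be told from that share. Members also covered the microRNA genes MIR150, MIR197 and MIR612, 3 snoRNA genes and, in 134 cases, a long non-coding RNA gene.

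FGFR1 after FOXA1 knockdown was compared with siNT over lists. A peak of the list overlapped 27.8% and 32.1% of members after siFOXA1 and 33.3% and 33.1% after siNT, which gave 29.97% ± 3.05 after siFOXA1 and 33.2% ± 0.142 after siNT (SD, n = 2 each). The difference of −3.26 points did not pass the exact permutation test over the 4 lists (two-sided p = 0.333, the smallest that 2 against 2 lists can give). With all 4 lists cut to the 4332 strongest peaks the difference turned to 3.36 points, higher after siFOXA1. On the arms the lists overlapped (36.6% after siFOXA1, 39.4% after siNT, exact p = 1).

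The other sets were lower after siFOXA1 in both lists, each with the same smallest exact p of 0.333. The 4 genes had 27.6% after siFOXA1 and 38.8% after siNT, and the other 228 members had 9.65% and 11.4%. Regions with H3K4me3 had 9.05% after siFOXA1 and 17.7% after siNT, a difference of −8.65 points. Whether the difference at members is unlike that at regions with H3K4me3 was not tested. In transfected cells members held an FGFR1 peak more often than regions with H3K4me3, in untransfected cells less often, in all 6 lists.

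**Figure D5:**
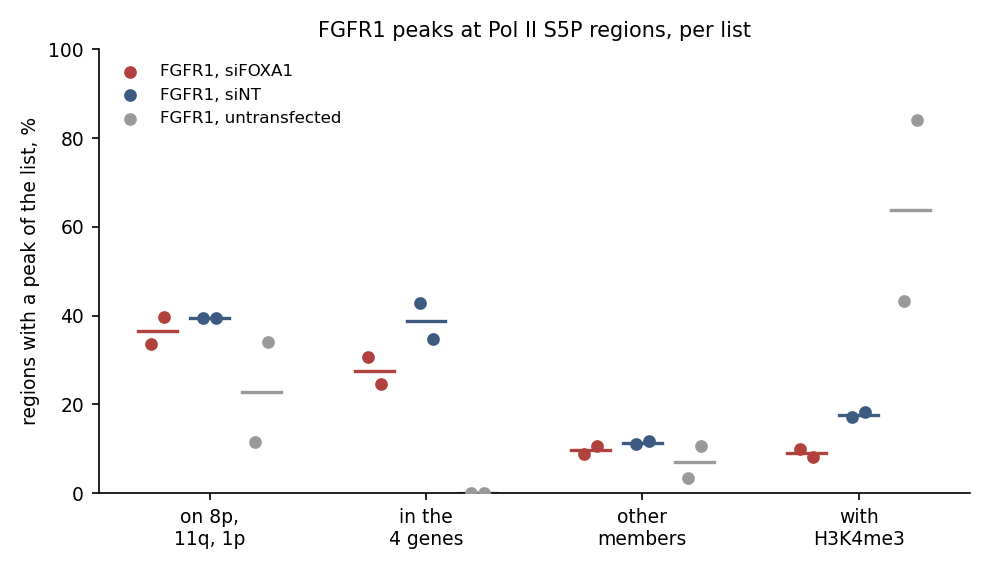
Share of Pol II S5P regions with an FGFR1 peak in each of the 6 lists (y, %), for members on the 3 arms, in the 4 genes and elsewhere, and for regions with H3K4me3; points are lists and lines their means. After siFOXA1 and siNT the members on the arms and in the 4 genes are above the regions with H3K4me3, and in untransfected cells the regions with H3K4me3 are above every set of members.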

How the data were processed

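ChIP-seq peak lists of CAMA1 cells were used as the authors deposited them, 2 lists for each of 7 groups (14 lists), with 7 input samples that have no list. Per the submitters' processing notes the build was hg38, and the tools named are Bowtie2, SAMtools, Picard and MACS2, with no version or role given. Each deposited row gives a position, a score (not used), a fold enrichment (a ratio over background, by the authors) and −log10 p- and q-values; the deposited −log10 q-values served only for stricter lists. Read depth is unknown, so the number of peaks stands in for it. The labels were followed where peak names inside the lists differ (replicate numbers of untransfected FGFR1, and FOXA2 in the FOXA1 lists).

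Rows outside chromosomes 1 to 22 and X were left out (0.0227% to 2.74% of a list). Lists of a group were joined into reproducible regions (at least 1 bp shared). Ends, spans and names of 19974 protein-coding genes came from the RefSeq table of GRCh38.p14, and strand, known for 15812 of them (79.2%), from its promoter sequences. No exon annotation or genome sequence was used, so sequences of the regions themselves are not shown. Regions were ranked by the mean of their within-list percentiles of fold enrichment. Named were the leading members by place and feature, the genes with most members, list genes with a member, and those nearest the rule's limit; the 4 genes and the leaders without them were added after values were seen. Some items, 5 members and a list gene among them, are not reported here. Shares carry 95% Wilson intervals and differences 95% Newcombe intervals, and knockdown shares an exact permutation test over lists. Same-numbered siFOXA1 and siNT lists share only a number. The interval and overlap code was tested on simulated data. The members and gene lists were chosen with earlier results of these data known. Python 3.11.15, pandas 2.3.3, numpy 2.4.6 and scipy 1.17.1 were used.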

Additional observations from a re-analysis of the deposited data

How the results depend on the processing

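Of 77 alternatives, 25 left a value within its spread or its side of the test, 51 moved it and 1 reversed it; the cause was not tested. The number of members was 199 with a Pol II S5P −log10 q of at least 5, 420 with a reciprocal overlap of 50%, and 2399 to 5418 in a single Pol II S5P list. With that q limit 31.7% were at gene ends, 32.7% on the 3 arms, and H3K27ac, FOXA1 and FGFR1 overlapped 51.3%, 27.6% and 2.01%, so a smaller share of these stronger members lay on the arms. With the reciprocal overlap the shares were 14.3% at ends, 62.9% on the arms and 44.0% with H3K27ac. With no H3K4me3 row within 1 kb they were 14.5% at ends, 40.8% with H3K27ac and 22.9% with FOXA1. With no reproducible H3K4me3 region they were 45.7%, 24.7% and 5.23% for H3K27ac, FOXA1 and FGFR1. Windows of 500 bp and 3 kb put 12.3% and 28.1% at ends. A row of either feature list overlapped 56.4%, 38.5% and 30.8% for H3K27ac, FOXA1 and FGFR1, and feature rows with a −log10 q of at least 5 overlapped 34.2%, 18.2% and 0.602%. Outside the arms the shares were 37.6% at ends, 56.7% with H3K27ac, 21.99% with FOXA1 and 1.06% with FGFR1, and without the members in the 4 genes and the 5 not described as well 46.1%, 67.5% and, for FGFR1, 1.32%.

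Leaving out 1 library, the share at ends was 11.5% to 12.6%, on the arms 64.9% to 76.0%, with H3K27ac 40.5% to 50.5%, with FOXA1 15.7% to 31.0% and with FGFR1 1.48% to 26.8%. The change of FGFR1 after siFOXA1 was −5.42 to −1.10 points; with the replicate block, whose smallest exact p is 0.5, it was −3.26 (−5.52 and −1.004 within numbers), and with lists of equal length it reversed to 3.36. In each alternative run for the overlaps, H3K27ac stayed the most frequent of the 3 targets at members. Read depth, copy number and input were not used here, which limits what weak members can show.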

Other observations

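Away from the arms and the 4 genes, few windows of 1 Mb held several members. The windows of 1q at 153, 154 and 155 Mb held 10, 7 and 11, with H3K27ac at 80.0%, 71.4% and 63.6% of them. On chromosome 21 the window at 10 Mb, next to the centromere, held 7 of its 9 Pol II S5P regions as members, none with H3K27ac and with median fold enrichments of 4.49 and 4.995. Members there covered the pseudogene BAGE2. KMT2C held 4 members, with fold enrichments of 3.83 to 5.59 and 4.33 to 7.23. Reads from near-identical copies cannot be told apart in peak lists, and no sequences were compared here.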
